A study of Mus musculus with 8 samples.

Results

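The histone lysine methylation enzymes described here are the genes whose symbols begin with Kdm, Kmt, Setd, Ezh, Prdm, Suv39h, Ehmt, Nsd or Smyd followed by a digit. The rule finds 63 of the 27179 genes of the expression table, and 53 of them were among the 11406 genes with enough signal to be tested. One of the 63, Prdm16os, is a noncoding RNA whose name falls under the rule, and it was listed at 0 in every library. The rule reads gene symbols only.

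C2C12 cells, an immortalized line of mouse myoblasts, were sampled in 2 states. GM cells were dividing at 50% confluence, on collagen-coated dishes in high-glucose medium that held 10% fetal bovine serum. The 3d DM cells had grown to about 90% confluence and then spent 3 days in medium with 2% horse serum. In such medium the cells of this line stop dividing and fuse into myotubes. Each state had 2 input RNA libraries and 2 libraries of RNA pulled down with an antibody to N6-methyladenosine (m6A), a methyl mark on adenosines of mRNA. All samples came from the same line with no genetic change. The labels do not say whether 2 libraries of a state came from separate cultures, so p-values may measure technical spread only.

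Lysines in histone tails are methylated by enzymes that mostly carry a SET domain and are demethylated by Kdm enzymes of the LSD1 and Jumonji types. Methylation of lysine 4 or lysine 36 of histone H3 marks genes in use, methylation of lysine 9 or lysine 27 marks silent chromatin, and methylation of lysine 20 of histone H4 is tied to the cell cycle and to chromosome compaction. In myoblasts these marks separate muscle genes that wait from muscle genes that are read.

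The values are the authors' normalized values, which are not reads, and the depth behind them is unknown. Columns sum to nearly the same total, of which 1 gene entry took between 24.4% and 41.3%. The median gene differed between the states by -0.22 on the log2 scale (3d DM minus GM, as everywhere here). After division by median-of-ratios factors, which set the typical gene level in all libraries, it differed by -0.01. Members are therefore given on both scales, called deposited and rescaled. All 6 markers of differentiated muscle rose in 3d DM and all 4 markers of dividing cells fell. GM replicate 1 carried more muscle marker signal than GM replicate 2, with summed values of 5114.2 and 1163.3 against 95441.5 and 132768 in 3d DM. Of the markers of the myogenic lineage, Des was called higher and Myf5 lower on both scales, and Myod1 and Cdh15 were not called. Of the fibroblast markers, Thy1 was listed at 0 and Lum read at most 3.1. Pdgfra read 97 and 36.2 in GM, against 68.5 and 64.7 in 3d DM, and was not called. Dcn read 429.9 and 17.1 in GM, against 409.1 and 684.9 in 3d DM. Dcn was called on the deposited values, although its groups overlapped, and not on the rescaled values. Adipocyte markers were at or near 0, and leukocyte markers summed to between 12.2 and 26.4. In bulk RNA, fewer cells of a kind and less RNA per cell cannot be told apart.

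Of the 53 tested enzymes, 6 changed on the deposited values, 3 in each direction (limma, adjusted p under 0.05). Smyd1, Kdm7a and Kdm5b were higher in 3d DM, and Ezh2, Suv39h1 and Suv39h2 were lower. The members called higher were 5.66% of those tested, beside 7.01% of all tested genes, and those called lower were also 5.66%, beside 9.96% of all genes. On the rescaled values 10 members were called higher (18.9%, beside 11.8% of all genes) and 5 lower (9.43%, beside 11.6%), where 23.4% of all genes were called in either direction. The same 6 were among these 15, and Ezh1, Setd7, Kdm3a, Kdm4b, Kdm4c, Kdm6b and Prdm2 joined the higher side and Smyd2 and Smyd4 the lower side. The median difference over the 53 members was -0.15 on deposited and 0.07 on rescaled values.

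Leaving out a library changed the calls. Without GM replicate 1 the same 6 genes were called on the deposited values. Without GM replicate 2 only Smyd1 was called, without 3d DM replicate 2 only Ezh2 and Suv39h1, and without 3d DM replicate 1 no member was. On the rescaled values none was called without either 3d DM library, 11 higher and 11 lower without GM replicate 1, and 12 higher and 5 lower without GM replicate 2. On the deposited values the standard error of a gene follows its level and hardly its own replicates.

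**Figure D1:**
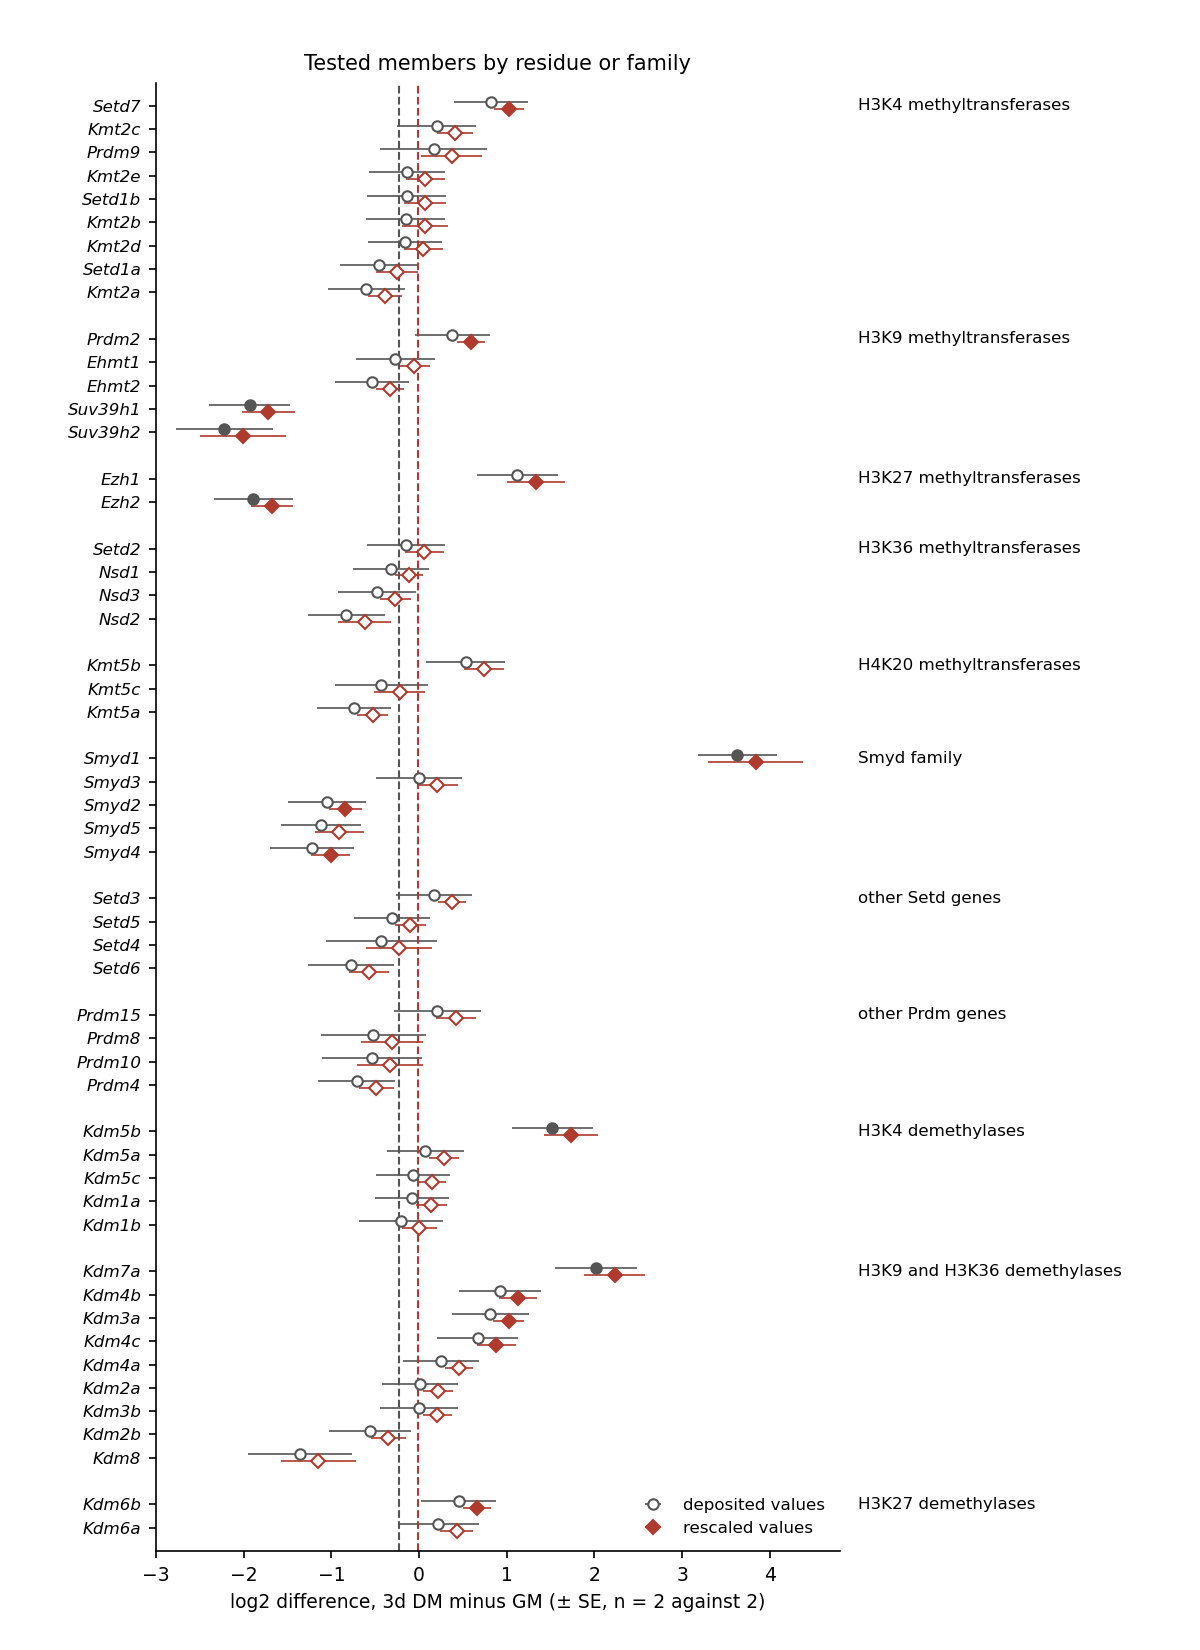
Log2 difference between 3d DM and GM (x axis, ± SE from limma, 2 against 2 libraries) for 52 tested members, grouped by the residue or family, on the deposited (circles) and rescaled (diamonds) values. Filled symbols were called at an adjusted p under 0.05, and dashed lines mark the median of all tested genes, -0.22 and -0.01. Smyd1 lies farthest to the right, and Suv39h2, Suv39h1 and Ezh2 lie farthest to the left.

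The pair of enzymes that methylate lysine 27 of histone H3 had differences of opposite sign. Ezh2 and Ezh1 are alternative catalytic subunits of Polycomb repressive complex 2, with Ezh2 typical of dividing cells and Ezh1 of resting cells. Ezh2 (chr6:47530139-47595341, minus strand, GRCm38) read 705.3 and 877.1 in GM, against 179.4 and 248.7 in 3d DM. The groups did not overlap, as in 37% of all genes in this direction, and the mean was 3.70 times higher in GM (log2 difference -1.89, SE 0.45, limma adjusted p = 0.000347; rescaled -1.68, adjusted p = 0.00694). Ezh1 (chr11:101191115-101226463, minus strand) read 338.8 and 149.6 in GM, against 421.4 and 569.8 in 3d DM. Its groups did not overlap either, as in 16.8% of all genes in this direction, and its mean was 2.03 times higher in 3d DM. That difference missed the threshold on the deposited values (1.12, SE 0.46, limma adjusted p = 0.074) and passed it on the rescaled values (1.33, SE 0.33, adjusted p = 0.035). On the deposited values it was 0.53 without GM replicate 2 and 1.71 without GM replicate 1. Per kilobase of exon, Ezh1 stood at 0.431 and 0.153 of the level of Ezh2 in GM and at 2.11 and 2.06 times its level in 3d DM. The order of these 2 genes thus turned in both libraries of each state. The exons of Ezh2 overlap Gm26625 on the opposite strand, and whether counting used strand is not given in the sources used here.

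Among the 5 methyltransferases of lysine 9 of histone H3, the heterochromatin enzymes Suv39h1 and Suv39h2 fell. Suv39h1 (chrX:8061171-8074760, minus strand) read 446.6 and 599.1 in GM, against 96.8 and 187.0 in 3d DM, 3.68 times higher in GM on the means (-1.93, SE 0.46, limma adjusted p = 0.000398). Suv39h2 (chr2:3455815-3475031, minus strand) read 91.1 and 195.7 in GM, against 26.6 and 29.4 in 3d DM, close to the filter on low values (5.12 times higher in GM on the means, -2.22, SE 0.55, limma adjusted p = 0.000713). In both genes every GM library lay above every 3d DM library, as in 37% of all genes on the deposited values and 34% on the rescaled values. On the rescaled values the differences were -1.72 (adjusted p = 0.0128) and -2.01 (adjusted p = 0.0344). Suv39h1 shares exon sequence with Gm14820, and Suv39h2 with Dclre1c and Gm13184, each on the opposite strand.

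The other enzymes of lysine 9 were not called lower. Ehmt2, also known as G9a, which places lighter methylation in euchromatin, read 1534.9 and 1288.5 in GM, against 786.7 and 1181.2 in 3d DM (-0.54, SE 0.42, limma adjusted p = 0.466). Both 3d DM libraries of Ehmt2 lay below both GM libraries, on the rescaled values too (-0.33), as in 37% and 34% of all genes on these scales. Its partner Ehmt1 read 443.6 and 419.5 in GM, against 301.1 and 424.8 in 3d DM, with overlapping groups and exon sequence shared with Gm37139 on the same strand (-0.27, SE 0.45, adjusted p = 0.792). Prdm2, a methyltransferase of the Prdm family, read 743.3 and 640.3 in GM, against 768.6 and 1044.9 in 3d DM, and was called higher on the rescaled values (0.59, SE 0.16, limma adjusted p = 0.047) but not on the deposited values (0.38, adjusted p = 0.665).

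Smyd1 showed the largest change of all 53 tested members on both scales. It encodes a methyltransferase of striated muscle that is needed for the assembly of myosin into sarcomeres. Smyd1 (chr6:71213940-71322233, minus strand) read 213.9 and 53.2 in GM, against 1039.3 and 1724.6 in 3d DM. The means differed by 10.3 times (log2 difference 3.63, SE 0.45, limma adjusted p = 6.41e-14; rescaled 3.84, SE 0.54, adjusted p = 0.00702). GM replicate 1, the GM library with more muscle marker signal, was also the one with more Smyd1, and the difference was 4.63 without that library and 2.64 without GM replicate 2. Kdm7a, Kdm5b and Ezh1, described in their own places, also read higher in GM replicate 1 than in GM replicate 2. How far the marker signal takes part in these values was not tested.

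Smyd2, Smyd4 and Smyd5 lay lower in both 3d DM libraries than in both GM libraries, which was so for 37% of all genes on the deposited values. Smyd2, which also methylates proteins outside chromatin and overlaps Gm37422 on the opposite strand, read 704.3 and 735.6 in GM, against 292.2 and 410.8 in 3d DM. Smyd4 read 248.0 and 246.9 in GM, against 88.5 and 125.9 in 3d DM. Smyd5 read 334.1 and 447.6 in GM, against 138.8 and 227.5 in 3d DM. None passed on the deposited values (limma adjusted p between 0.0644 and 0.0878), and on the rescaled values Smyd2 (-0.84, adjusted p = 0.0267) and Smyd4 (-1.01, adjusted p = 0.0247) were called and Smyd5 was not (-0.91, adjusted p = 0.0646). The groups of Smyd3 overlapped on the deposited values, with a difference of 0.00 (SE 0.49), and it was not called on either scale.

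None of the 16 tested Kdm genes was called lower on either scale. Kdm8 was called lower in 2 of its 17 alternative fits, among them the fit without the intensity trend (-1.36, SE 0.47, limma adjusted p = 0.0251). Called higher were 2 Kdm genes on the deposited values (12.5%, beside 7.01% of all genes) and 6 on the rescaled values (37.5%, beside 11.8%). Both 3d DM libraries lay above both GM libraries in 6 of the 16 genes on the deposited values (37.5%, beside 16.8% of all genes) and in 12 on the rescaled values (75%, beside 33% of all genes). In 2 of the 16, Kdm2b and Kdm8, both 3d DM libraries lay below both GM libraries on either scale (12.5%, beside 37% and 34% of all genes). The median difference was 0.15 on deposited and 0.36 on rescaled values. The 30 methyltransferase genes outside the Prdm family had medians of -0.37 and -0.16 on these scales, and 14 of them lay below in both 3d DM libraries on either scale (46.7%). These groups of genes were set side by side as a description, and the difference between them was not tested.

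Kdm7a, a Jumonji enzyme that acts on lysine 9 and lysine 27 of histone H3, rose most among the demethylases. It read 149.5 and 69.3 in GM, against 415.6 and 416.2 in 3d DM (chr6:39136623-39206789, minus strand; 3.80 times on the means, 2.02, SE 0.47, limma adjusted p = 0.000275; rescaled 2.23, adjusted p = 0.00925). Its exons overlap those of 4930599N23Rik on the opposite strand. Kdm5b, which removes methyl groups from lysine 4, read 232.6 and 109.4 in GM, against 409.7 and 513.4 in 3d DM (chr1:134560171-134635285, plus strand; 2.70 times on the means, 1.52, SE 0.46, limma adjusted p = 0.00873; rescaled 1.73, adjusted p = 0.0141). With the replicate number as a block, Kdm5b kept its difference of 1.52 and lost its call (limma adjusted p = 0.0661). Neither gene had overlapping groups, and 16.8% of all genes had both 3d DM libraries above both GM libraries on the deposited values. The other lysine 4 demethylases were not called on either scale, and Kdm1a (LSD1) read 1281.5 and 1144.0 in GM, against 885.6 and 1490.0 in 3d DM, a difference of -0.08 (SE 0.42) that was 0.14 on the rescaled values.

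Demethylases of lysine 9 and lysine 36 called on the rescaled values only were Kdm3a, Kdm4b and Kdm4c. Kdm3a, which removes the lighter forms of lysine 9 methylation, read 439.5 and 320.1 in GM, against 531.9 and 814.2 in 3d DM (rescaled 1.02, SE 0.18, limma adjusted p = 0.0137). Kdm4b read 226.2 and 148.5 in GM, against 306.1 and 393.6 in 3d DM (rescaled 1.13, SE 0.22, adjusted p = 0.0174). Kdm4c read 195.4 and 209.7 in GM, against 260.4 and 401.3 in 3d DM (rescaled 0.88, SE 0.22, adjusted p = 0.035). These Kdm4 enzymes act on the trimethylated forms of lysine 9 and lysine 36. On the deposited values none of the 3 genes was called (limma adjusted p between 0.187 and 0.390). Both 3d DM libraries lay above both GM libraries in all 3 there, as in 16.8% of all genes. Both scales rest on the same libraries, so this is not separate support. Kdm4a read 745.4 and 666.3 in GM, against 691.9 and 1014.7 in 3d DM and was not called (0.25, SE 0.43, limma adjusted p = 0.801; rescaled 0.46, adjusted p = 0.0934).

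The demethylases of lysine 27 remove the mark that Ezh1 and Ezh2 place. Kdm6b read 712.7 and 661.3 in GM, against 787.9 and 1112.3 in 3d DM, and was called on the rescaled values (0.66, SE 0.16, limma adjusted p = 0.0363) but not on the deposited values (0.45, adjusted p = 0.586). Kdm6a, carried on the X chromosome, read 261.7 and 258.9 in GM, against 256.3 and 361.2 in 3d DM. On the deposited values its groups overlapped (0.22, SE 0.46). On the rescaled values both 3d DM libraries lay above both GM libraries, as in 33% of all genes, and Kdm6a was not called (0.43, SE 0.19, limma adjusted p = 0.161). Kdm6b shares exon sequence with Kdm6bos on the opposite strand.

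Among the methyltransferases of lysine 4, lysine 36 and H4 lysine 20, none was called on the deposited values and only Setd7 on the rescaled values. Setd7, which adds a single methyl group to lysine 4 and to other proteins, read 980.8 and 937.3 in GM, against 1510.0 and 1889.9 in 3d DM (0.82, SE 0.42, limma adjusted p = 0.201; rescaled 1.03, SE 0.17, adjusted p = 0.0112), and it shares exon sequence with 5031434O11Rik on the opposite strand. Kmt2d, a large MLL-type enzyme of enhancers, read 1683.0 and 1917.7 in GM, against 1509.7 and 1721.0 in 3d DM (-0.16, SE 0.42; rescaled 0.05). Kmt2a, the founding MLL gene, read 776.9 and 702.5 in GM, against 458.2 and 515.5 in 3d DM, lower in both libraries but not called, and with AC061963.1 on the opposite strand (-0.60, SE 0.44, limma adjusted p = 0.422). Nsd2, which dimethylates lysine 36 and shares exon sequence with Nelfa on the opposite strand, read 747.2 and 1161.1 in GM, against 421.7 and 652.9 in 3d DM (-0.83, SE 0.44, adjusted p = 0.211). Kmt5a, the enzyme that places single methyl groups on H4 lysine 20 before mitosis, read 1887.0 and 1826.4 in GM, against 1030.8 and 1194.9 in 3d DM (-0.74, SE 0.42, adjusted p = 0.261). Groups of the last 3 genes did not overlap, which was so in the lower direction for 37% of all genes.

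The other 10 members were not tested. Kdm4d, Kdm5d, Prdm6, Prdm12, Prdm13, Prdm14, Prdm16 and Prdm16os were listed at 0 in all 4 libraries, Prdm16 being best known from brown fat. Prdm1 reached at most 12.4 and Prdm11 at most 6.0.

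**Figure D2:**
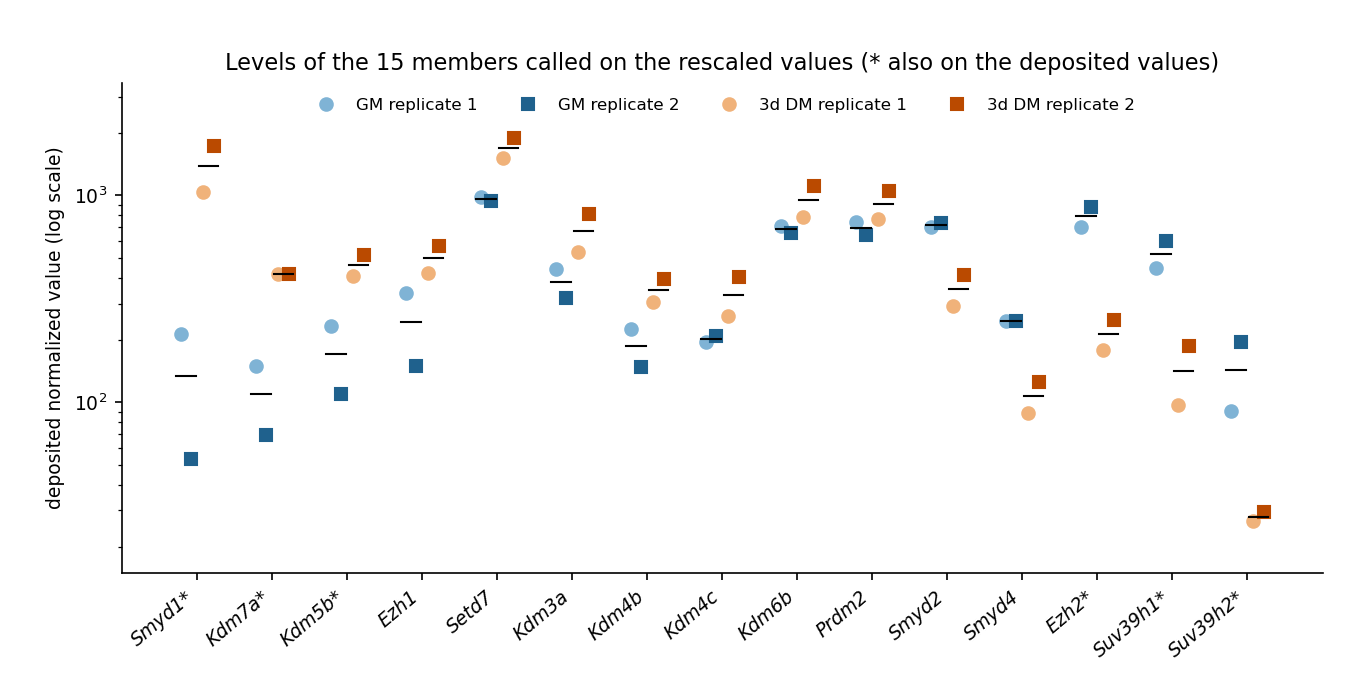
Deposited normalized value (log axis) in each of the 4 input libraries for the 15 members called on the rescaled values, with a bar at the mean of each state, and a star on the 6 that were also called on the deposited values. In all 15 genes 3d DM replicate 2 lay above 3d DM replicate 1, from 416.2 against 415.6 in Kdm7a to 187.0 against 96.8 in Suv39h1. The median-of-ratios factors of replicates 2 and 1 were 0.14 and -0.35 on the log2 scale, so the typical gene differed in the same direction. On the rescaled values the order turned in Kdm7a (378.1 against 529.5) and held in Suv39h1 (169.9 against 123.4).

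Genes outside the naming rule were read from 5 lists. Of these, 2 hold partners in enzyme complexes, 2 hold other enzymes of histone lysine methylation, and 1 holds readers of methylated lysine. Over 5 lists, 5 of 44 tested genes were called lower on the deposited values (11.4%, beside 9.96% of all genes) and none higher, and in 26 of the 44 both 3d DM libraries lay below both GM libraries (59.1%, beside 37% of all genes). Of 9 PRC2 partners, Phf19 (-1.82, SE 0.53, limma adjusted p = 0.00493) and Rbbp7 (-1.12, SE 0.42, adjusted p = 0.0441) fell, none rose, and the core subunit Suz12 read 844 and 1024.6 in GM, against 340 and 582 in 3d DM without being called (-1.06, SE 0.44, adjusted p = 0.0781). Of 12 partners of the lysine 4 enzymes, Psip1 was called lower (-1.20, SE 0.44, limma adjusted p = 0.0389) and none higher, with Men1 added on the rescaled values. All 12 had a difference below 0 on the deposited values, as had 7212 of all 11406 tested genes. On the rescaled values 11 of the 12 lay below 0, as did 5803 of all tested genes. In 9 of the 12 both 3d DM libraries lay below both GM libraries on the deposited values (75%, beside 37% of all genes). None of 5 other lysine methyltransferases and none of 7 other Jumonji genes was called on either scale. Among 11 readers of methylated lysine, the chromobox genes Cbx2 (-1.37, SE 0.50, limma adjusted p = 0.0362) and Cbx3 (-1.49, SE 0.43, adjusted p = 0.00442) fell and none rose, and Cbx6 was added on the rescaled values. The medians of these 5 lists lay between -0.62 and -0.38 on the deposited values, where the median of all genes was -0.22.

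Most of the enzymes' mRNAs carried m6A peaks, places where pulled-down RNA exceeded input. A peak was present on 45 and 40 members in the GM lists and on 48 and 37 in the 3d DM lists, which is 84.9%, 75.5%, 90.6% and 69.8% of the tested members. The same shares over all tested genes were 63%, 59.6%, 61.9% and 52.8%. Both states had a mean of 42.5 members with a peak (n = 2 lists each), with an SD of 3.54 for GM and 7.78 for 3d DM, and the exact permutation p was 1. With 2 lists against 2 the smallest possible p is 0.33. Overlapping lines counted as 1 peak, the lists held 150 and 121 distinct member peaks in GM, against 159 and 117 in 3d DM (135.5 ± 20.5 against 138 ± 29.7, SD, n = 2 each, exact permutation p = 1). Lists with the same number differed less between states than the lists of 1 state did from each other.

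A peak stood in all 4 lists for 33 members (62.3% of those tested, beside 42% of all tested genes), and 5 tested members had no peak in any list. These 5, Kdm1b, Kdm8, Prdm10, Setd4 and Smyd3, had a median level of 51.3, where the 33 with a peak in every list had 658. For all genes the corresponding medians were 135 and 490. In the members as in all genes, those with a peak in more lists had the higher median level. There were 5 members that had a peak in both lists numbered 1 and in neither list numbered 2, Ezh1 and Kdm4c among them (9.43% of those tested, beside 3.18% of all genes), and none had the opposite pattern, which 1.11% of all genes had.

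**Figure D3:**
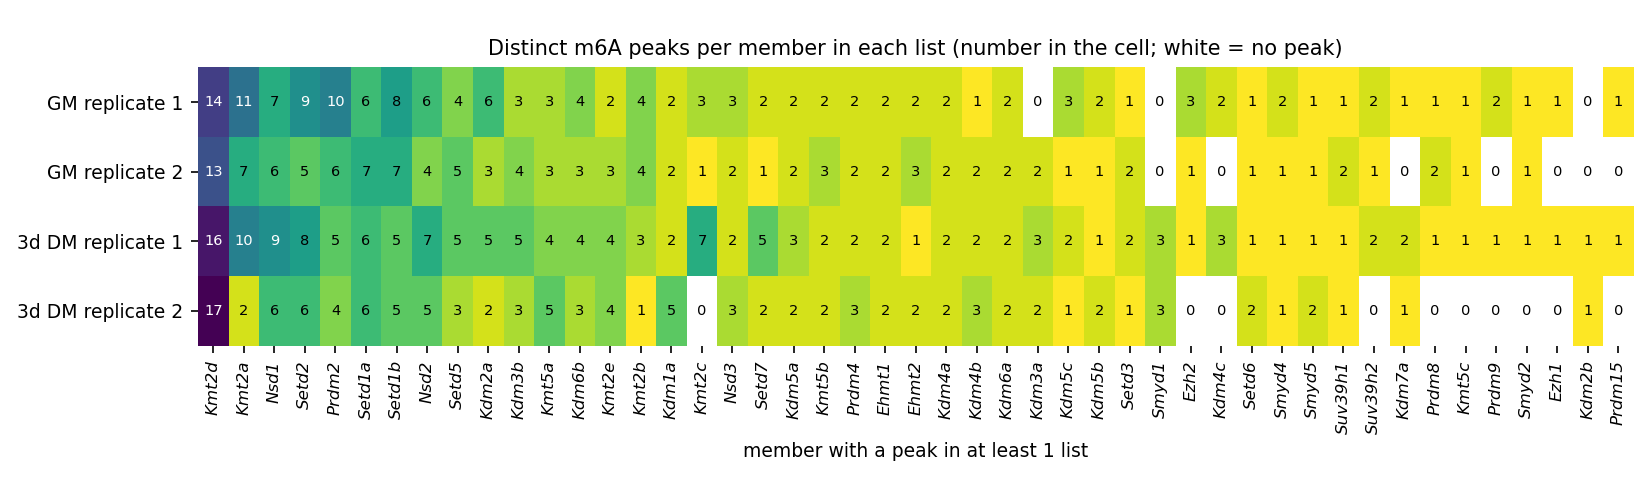
Number of distinct m6A peaks (cell text and colour) in each of the 4 peak lists (rows) for 47 members with a peak in at least 1 list (columns), ordered by their total. Kmt2d leads with 14, 13, 16 and 17 peaks, Smyd1 and Kdm2b have peaks in the 3d DM lists only, and white cells, without a peak, are most frequent in 3d DM replicate 2.

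The peaks of the enzymes lay mainly in coding sequence. Between 70.4% and 71.9% of member peaks in a list lay wholly within it, where the share over all genes was between 37.7% and 42.1%. Peaks wholly in the 3′ UTR were 14.9% to 17.6% of member peaks and 28.6% to 32% of all. The share within coding sequence was 71.6% ± 0.401 in GM and 70.7% ± 0.353 in 3d DM (SD, n = 2 each, exact permutation p = 0.33, the smallest possible). Member mRNAs are long, with a median longest transcript of 5944 to 6449 nt over the genes with a peak against 3299.5 to 3523 nt for all genes. They carried on average 3.025 to 3.33 peaks per gene against 1.73 to 1.93, but per 10 kb of transcript 4.55 to 5.23 against 4.45 to 4.76. Counted per length, the members lay much closer to all genes than when counted per gene.

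Over the 4 lists together, 189 distinct places carried a member peak, 65 of them in all 4 lists (on 31 genes) and 62 in a single list. Peaks that were distinct within 1 list could merge into 1 place, as in Prdm2, with 10 peaks in GM replicate 1 and 5 places. The counts of places that follow depend on this merging. Kmt2d had the most with 20, followed by Kmt2a with 15 and Setd1b with 9, and Kdm2a, Kmt2c, Nsd1, Nsd2, Setd1a and Setd2 tied with 7 each. Repeatability differed between these long genes. Setd1a and Nsd1 had 5 of 7 places in all 4 lists, Kmt2d had 7 of 20, Kmt2a had 1 of 15 and Kmt2c had none of 7.

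Smyd1 and Kdm2b had a peak in both 3d DM lists and in no GM list (3.77% of tested members, beside 1.72% of all genes), and no member had the opposite pattern, which 2.63% of all genes had. Smyd1 had 3 distinct peaks in each 3d DM list, and the place spanning exons 5 to 8 of its coding sequence (chr6:71219290-71235374) had a fold enrichment of 2.41 and 3.82. Its input level in GM was 10.3 times lower on the mean, and the part of that level in the missing GM peaks was not tested. In Kdm2b, which demethylates lysine 36, the 2 lists did not share the place. The peak of 3d DM replicate 1 lay in coding sequence (chr5:122932580-122932699, fold 4.02) and that of replicate 2 across the end of the coding sequence and the 3′ UTR (chr5:122871518-122871834, fold 9.59). Ezh2 had 3 and 1 distinct peaks in GM, against 1 and 0 in 3d DM, and its main place (chr6:47542387-47547386, exons 9 to 13) had a fold of 4.76 and 2.92 in GM, against 3.28 in 3d DM replicate 1. The input level of Ezh2 was 3.70 times higher in GM on the mean, and the part of that level in its peak counts was not tested. Suv39h1, whose level was 3.68 times higher in GM, kept its single place in all 4 lists (chrX:8063975-8072327), with folds of 3.34 and 4.73 in GM, against 3.31 and 15.85 in 3d DM.

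The following stretches show the letters under these peaks and under those whose enrichment is compared next. Each is the run of 120 bases within 1 coding exon of the peak that holds the most copies of GGAC, the core of the sequence at which m6A is placed, read on the transcript strand from GRCm38 and written as DNA, with GGAC in capitals. The first is the Nsd1 place of highest mean fold, the next 4 are places whose difference between the states is described after them, and the last 2 are the main coding places of Smyd1 and Ezh2.
Nsd1 exon 2, chr13:55213649-55213768, plus strand: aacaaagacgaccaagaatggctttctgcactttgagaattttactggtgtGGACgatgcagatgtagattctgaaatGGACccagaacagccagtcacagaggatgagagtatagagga
Nsd1 exon 5, chr13:55247078-55247197, plus strand: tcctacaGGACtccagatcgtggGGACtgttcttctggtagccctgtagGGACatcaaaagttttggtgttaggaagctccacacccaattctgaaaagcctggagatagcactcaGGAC
Setd5 exon 7, chr6:113114844-113114963, plus strand: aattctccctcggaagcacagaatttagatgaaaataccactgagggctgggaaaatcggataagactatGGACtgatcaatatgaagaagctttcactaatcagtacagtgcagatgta
Setd1b exon 11, chr5:123158632-123158751, plus strand: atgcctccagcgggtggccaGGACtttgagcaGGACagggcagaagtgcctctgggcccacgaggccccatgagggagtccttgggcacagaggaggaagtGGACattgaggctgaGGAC
Kmt2d exon 40, chr15:98844955-98845074, minus strand: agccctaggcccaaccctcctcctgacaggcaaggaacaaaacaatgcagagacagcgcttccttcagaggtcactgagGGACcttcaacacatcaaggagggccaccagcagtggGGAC
Smyd1 exon 6, chr6:71225365-71225484, minus strand: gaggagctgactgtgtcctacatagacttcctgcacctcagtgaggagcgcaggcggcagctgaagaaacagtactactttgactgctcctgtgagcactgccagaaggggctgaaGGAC
Ezh2 exon 10, chr6:47545744-47545863, minus strand: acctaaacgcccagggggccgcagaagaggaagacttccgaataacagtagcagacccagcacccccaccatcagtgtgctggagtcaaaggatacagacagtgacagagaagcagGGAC

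The Nsd1 and Setd1b stretches hold 4 copies of GGAC in exon 5 and exon 11, and those of Smyd1, Setd5 and Ezh2 hold 1. The coding sequence of members with a peak was cut into windows of 120 bases. Inside peaks 47.8% of 381 windows held GGAC on the transcript strand, and outside peaks 37.8% of 696 windows did. The windows inside peaks came from 40 members and those outside from 48, so the genes are not all the same. Over all genes with a peak the shares were 46.4% of 25382 windows, from 5545 genes, and 42.8% of 63106 windows, from 8208 genes. A match is a description of the letters and not a modified base.

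Fold enrichment was compared at the 65 member places with a peak in all 4 lists, within a fit over all 6055 such places. No place was called, among members or overall (limma, lowest adjusted p = 0.997, 0% of 6055 called), and 204 of all places had an unadjusted p under 0.05. Members held 5 of these, 4 higher in 3d DM (beside 1.21% of all places) and 1 lower (beside 2.16%). In 10 of the 65 both 3d DM lists lay above both GM lists (beside 9.28% of all places) and in 13 both lay below (beside 21.6%). The median difference was -0.05 on the log2 scale at member places and -0.11 at all places.

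The 3 places with the largest differences were on Setd1b and Nsd1. Setd1b, a catalytic subunit of a COMPASS complex that methylates lysine 4, had a place over exons 10 to 12 (chr5:123157859-123160032) with folds of 35.9 and 14.1 in GM, against 4.37 and 14.2 in 3d DM. The difference of -1.51 (SE 0.77, limma adjusted p = 0.997) was carried by the lists numbered 1, while GM replicate 2 and 3d DM replicate 2 lay at 14.1 and 14.2, and the groups overlapped. Nsd1, which dimethylates lysine 36, had a place in exon 5 (chr13:55246743-55247222) with folds of 2.96 and 4.40 in GM, against 6.35 and 15.9 in 3d DM (1.48, SE 0.55). The next place, over exons 5 and 6 (chr13:55247641-55260363), had folds of 3.58 and 3.52 in GM, against 6.44 and 12.95 in 3d DM (1.36, SE 0.50). Neither passed after adjustment over all places.

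Along Nsd1 the direction was not the same at all places. The first, in exon 2, stood at 20.1 and 11 in GM, against 14.8 and 15 in 3d DM, a difference of 0.00 (SE 0.70). The 3 in the middle lay higher in both 3d DM lists, with differences of 0.89, 1.48 and 1.36. The last, at the stop codon and in the 3′ UTR (chr13:55312338-55314049), stood at 8.37 and 7.10 in GM, against 3.45 and 5.44 in 3d DM, a difference of -0.83 (SE 0.49). All 5 share the same input libraries and the same gene level, and the difference between places was not tested. Kmt2d varied along its length as well, with a difference of -1.17 (SE 0.54) at the exon 40 place (chr15:98844451-98845270), where folds were 11.2 and 12.25 in GM, against 4.36 and 6.22 in 3d DM, and of 0.49 (SE 0.52) at chr15:98849521-98850553. Setd5 was singled out after its values were seen, since it had the lowest unadjusted p of the members at exons 6 to 8 (chr6:113111403-113115633), with folds of 3.03 and 2.25 in GM, against 5.35 and 7.52 in 3d DM (1.28, SE 0.42, limma adjusted p = 0.997).

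**Figure D4:**
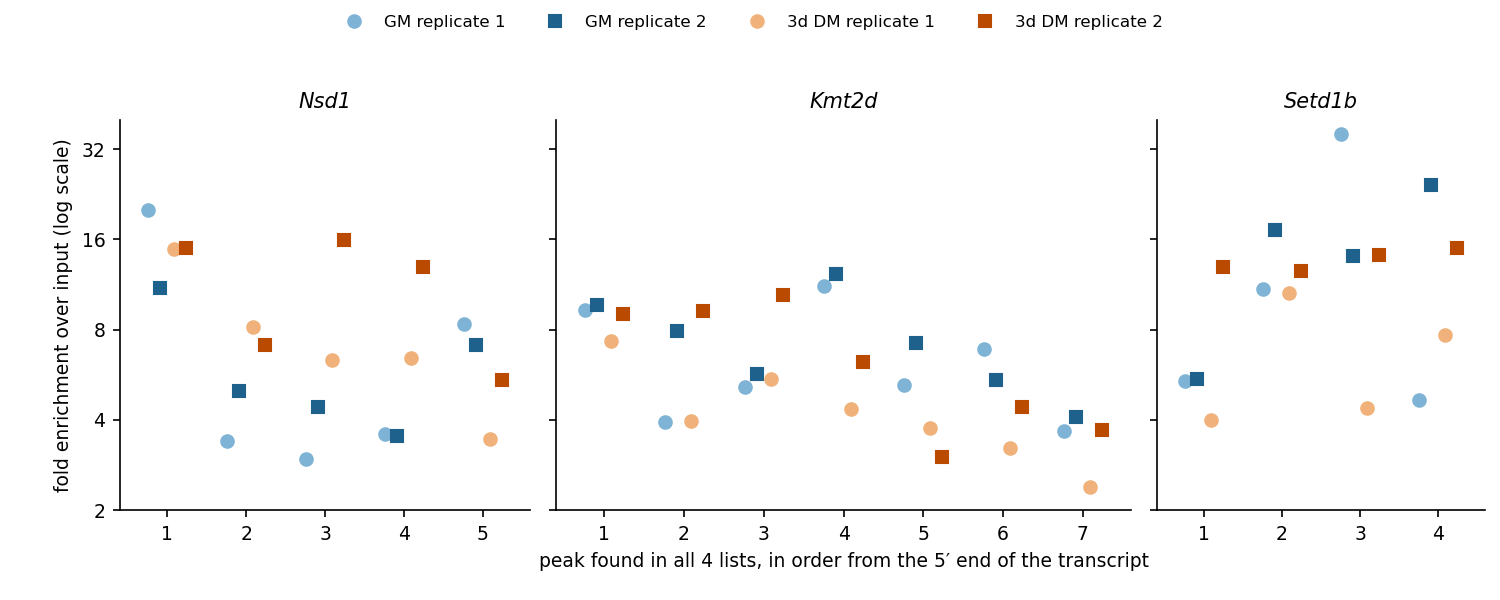
Fold enrichment over input (log axis) in each of the 4 lists at the places of Nsd1, Kmt2d and Setd1b that had a peak in every list, in order from the 5′ end of the transcript (x axis). In Nsd1 the 3d DM points lie above the GM points at places 2 to 4 and below them at place 5, and in Setd1b the states overlap at all 4 places.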

How the data were processed

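Input RNA and anti-m6A libraries of C2C12 myoblasts (GM and 3d DM, 2 each) were taken as deposited and grouped by their labels. Per the study's methods, the authors removed adaptors, mapped the reads with HISAT2 (2.1.0, mm10) and ran exomePeak sample by sample, keeping lines with P of at most 0.05. A deposited peak line holds a p-value and a fold enrichment, the ratio over input. The deposited expression table holds a normalized signal (TMM), with no read numbers. How genes were counted is not given in the sources used here. Low values come in pairs: of genes whose GM values both lie between 0.5 and 30, 94.3% shared their pair with another gene. For pairs across states the shares were 25.1% (libraries numbered 1) and 31.6% (numbered 2). Both values of a state were thus adjusted together, and their SD is not that of independent libraries. Depth is unknown, and no counting error is given.

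Genes with a value of at least 25.1 (2 cpm of the column total) in at least 2 libraries were tested on log2(value + 1) in limma (3.58.1, under R 4.3.3) with a trend on intensity, and p-values were adjusted by Benjamini-Hochberg over all of them. Fold changes are on that scale and understate the change of low genes. Symbols were matched to 98.7% of tested genes, and positions are GENCODE M21 on GRCm38. Lines of a gene sharing at least 1 bp were merged to distinct peaks. Fold enrichment was tested in limma on log2 values, and numbers of peaks by two-sided exact permutation. The expression fit was tried on simulated data with known answers.

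Members and lists were chosen with earlier results of these data known. Named are all called members and those best known in muscle or the cell cycle. The latter are Ezh1, Ezh2, Suv39h1, Suv39h2, Ehmt1, Ehmt2, Smyd1, Setd7, Kmt2a, Kmt2d, Kmt5a, Kdm1a, Kdm4a, Kdm5b, Kdm6a, Kdm6b, Nsd2 and Prdm16. Also named are the 5 members with the most peak places and all tied with them. The members with peaks in 1 state only and the 3 places of largest difference are named too. Alternatives were other filters, pseudocounts, scalings, peak thresholds and peak units, no trend, the replicate number as a block, and each library left out. Rescaling without the trend, or with a library left out, was chosen after seeing the data. The values of 1 member, which is included in the counts, are not reported here.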

Additional observations from a re-analysis of the deposited data

How the results depend on the processing

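The 6 members called on the deposited values were also called with the filter in 3 libraries, with no filter, with pseudocounts of 0.1 or 4 and without the intensity trend, which added Kdm8 to give 3 higher and 4 lower. Rescaling by median-of-ratios or trimmed-mean factors raised the members called higher from 3 to 10 and those called lower from 3 to 5 (the cause was not tested). Rescaling without the intensity trend and rescaling with a library left out, both chosen after seeing the data, follow: the first gave 6 and 4. Leaving out 1 library gave 0 to 3 higher and 0 to 3 lower on the deposited values, and on the rescaled values 11 or 12 higher and 11 or 5 lower without GM replicate 1 or 2, and 0 and 0 without either 3d DM library. The labels share replicate numbers but no source says that they pair samples. With the replicate block 2 members were higher and 3 lower, Kdm5b being lost (limma adjusted p = 0.0661), and no other call of a named member changed. Same-numbered libraries deviated together with a correlation of 0.29 in the RNA and 0.12 in the peaks.

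Small differences changed sign. Kdm1a was 0.14, 0.13 and 0.14 with median-of-ratios factors, trimmed-mean factors and rescaling without the trend, -0.45 to 0.30 without 1 library, and 0.10, 0.17, 0.27 and 0.00 rescaled without 1 library. Kmt2d was 0.05 under each rescaling, and 0.27 and 0.20 rescaled without GM replicate 2 or 3d DM replicate 2. Without 1 library, Kdm4a lay between -0.03 and 0.53 and Kdm6a between -0.02 and 0.47, and Ehmt1 was 0.02 rescaled without GM replicate 2. The median log2 difference at member peaks was 0.06 after centring each list and between -0.23 and 0.04 without 1 list. The difference in members with a peak lay between -5.5 and 5.5 without 1 list, and that in distinct peaks between -18.5 and 23.5. With 2 libraries a state and unknown depth, the precision of small differences is limited.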
